A study of Mus musculus with 2 samples.

Results

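Glucose breakdown was described here through 35 genes of glycolysis, pyruvate use and the pentose phosphate pathway in mouse megakaryocyte-erythroid progenitors (MEP). The genes were taken by symbol from a list of the pathway's enzymes, transporters and regulators. No measured value entered that rule, but the list was chosen with earlier results of these data known. All 35 were found among the 43346 gene rows of both deposited tables. MEP are blood progenitor cells that give rise to red cells and to megakaryocytes, the cells that shed platelets. The cells came from adult C57BL/6J males, 5 to 6 weeks old, and were isolated from bone marrow, with no treatment or modified allele named. The series holds 1 group of 2 libraries, numbered as biological replicates 1 and 2. Each library was made with the ScriptSeq kit from 100 ng of total RNA depleted of ribosomal RNA, and the size range, whose unit is not stated, ran from 200 (replicate 1) or 215 (replicate 2) up to 1000. Both libraries carry the same donor entry but separate biosample entries. Whether they came from separate mice is therefore not stated, and each SD below measures only the spread between these 2 libraries, which may be technical.

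Glycolysis turns glucose into pyruvate in the cytosol, and pyruvate is then reduced to lactate or burned in mitochondria. The pentose phosphate pathway leaves glycolysis at glucose-6-phosphate: its oxidative branch makes NADPH, and its non-oxidative branch makes and recycles ribose phosphate for nucleotides. Many steps can be run by several isoenzymes, which are separate genes or splice forms with different tissue distribution and regulation. Mature red cells, which lack mitochondria, depend on glycolysis for ATP and on the pentose phosphate pathway for NADPH.

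Replicate 1 held 39919884 expected counts (estimated reads per gene) and replicate 2 held 48043010. Levels are given as TPM, a length-corrected share of all RNA in the table. Nuclear protein-coding genes held 25.5% of the TPM in replicate 1 and 20.6% in replicate 2, so TPM of coding genes depends on the other RNA in each library. Of 12 erythroid marker genes, 11 reached a TPM of 1 or more in both libraries, and their summed TPM was 1534 and 1522. The 10 megakaryocyte markers summed to 86.8 and 33.9, with 5 of them detected in both, and the 9 stem and multipotent markers to 81.0 and 21.2, with 4 detected. The 10 granulocyte and monocyte markers summed to 74.3 and 135, and the 10 lymphocyte and NK cell markers to 9.79 and 34.7. The 3 liver markers Alb, Apoa1 and Ttr had a TPM of 0 in both libraries.

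Of the 35 genes, 30 reached this TPM of 1 in each library, whereas 39.4% of 21461 nuclear protein-coding genes did. The 5 that did not were Slc2a1, Hk3, Aldoc, Ldhb and Slc16a3, each of them a lesser isoenzyme or transporter of its step. All but Aldoc had counts in both libraries. The median of the 35 mean levels was a TPM of 15.2, and 23 of the 35 lay above 8.13, the median of expressed coding genes. The genes spread over a wide range, from Aldoc at 0.11 ± 0.16 to Gapdh at 160 ± 20.9 (mean ± SD, n = 2). Of 10 steps represented by at least 2 genes, all 10 had the same leading gene in both libraries. At 8 of these steps the genes are alternatives to each other. Pgam1 and Bpgm run different main reactions, and Pdha1 and Pdhb are subunits of 1 enzyme, so a lead there is not an isoenzyme choice. In 9 of the 10 the deposited TPM intervals of the first and second gene, whose level is not stated, lay apart in both libraries. With 2 libraries an exact two-sided sign test cannot go below p = 0.5, so no test of these leads was run.

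**Figure D1:**
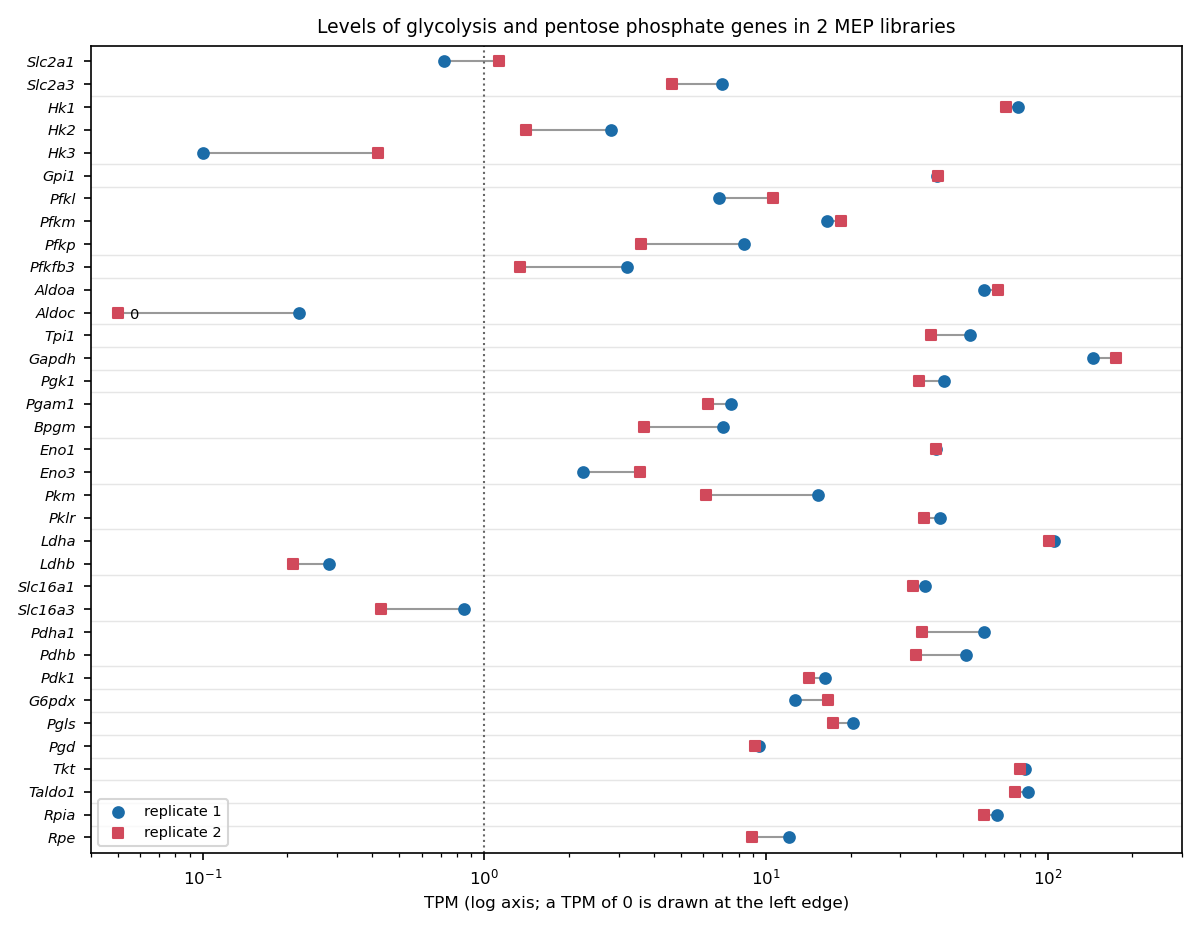
TPM on a log axis of each of the 35 genes, in pathway order, with a circle for replicate 1, a square for replicate 2 and a dotted line at a TPM of 1. Gapdh, Ldha, Tkt, Taldo1 and Hk1 have the highest means, and Aldoc, listed at 0 in replicate 2, has the lowest.

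Glucose enters cells through facilitative transporters, of which Slc2a3 (GLUT3, a high-affinity carrier) led over Slc2a1 (GLUT1). The Slc2a3 level was 7.0 TPM in replicate 1 and 4.63 in replicate 2, and values below follow that order. Slc2a1 had 0.72 and 1.13, on 157 and 205 counts. Slc2a3 was thus 9.72-fold higher than Slc2a1 in replicate 1 and 4.10-fold in replicate 2. In replicate 2, 52.2% of the Slc2a1 level lay in Slc2a1-203, a transcript of 633 bases. When only coding transcripts of at least 1000 bases were summed, Slc2a1 had 0.72 and 0.54, and the ratio was 7.64 and 7.96. Slc2a8, another family member, had a TPM of 0.90 and 1.05, close to that of Slc2a1.

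Hexokinase, which traps glucose in the cell as glucose-6-phosphate, was almost entirely Hk1 at the RNA level. Hk1 (mm10 chr10:62268855-62379908, minus strand) had a TPM of 78.7 and 70.9. Hk2, the insulin- and hypoxia-responsive isoenzyme of muscle and tumours, had 2.81 and 1.41. Hk1 held 96.4% of the summed TPM of the step's 3 genes in replicate 1 and 97.5% in replicate 2. Hk3, an isoenzyme known from myeloid cells, had a TPM of 0.10 and 0.42, on 25 and 159 counts. The 25 counts of replicate 1 lay in the coding transcript Hk3-208. All 159 of replicate 2 lay in Hk3-204, annotated as a nonsense-mediated decay form and not as coding. Coding transcripts of at least 1000 bases gave Hk3 0.10 and 0, so its direction between the libraries depended on the transcripts summed. The summed granulocyte and monocyte markers, given above, were also higher in replicate 2, with 6 of the 10 higher and 4 lower. On the same TPM scale, 2424 of the 9033 coding genes compared further below were higher in replicate 2 and 6601 lower. Some of the 10 markers lie under the level that those genes had to reach. S100a8 had 30.7 and 68.2, whereas Mpo, a marker of earlier granulocytic cells, had 8.53 and 1.64. The part of these markers in the Hk3 level was not tested. Hkdc1, a hexokinase relative, had 0 counts in both libraries. Gpi1, which turns glucose-6-phosphate into fructose-6-phosphate at the fork with the pentose phosphate pathway, had 40.6 and 40.9.

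Among the 20 annotated Hk1 transcripts, Hk1-212 held the largest share of the gene's TPM, 37.3% and 39.2%. It is a coding model of only 896 bases inside the gene. The longer Hk1-201, of 3639 bases, held 33.6% and 33.7%, Hk1-205 held 18.1% and 12.3%, and Hk1-202 held 10.6% and 14.5%. These 4 models begin at different positions. On coding transcripts of at least 1000 bases, Hk1 had a TPM of 49.0 and 42.9 and was 24.9-fold and 48.2-fold above Hk2.

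Phosphofructokinase, which commits sugar to glycolysis, was shared by 3 genes. Pfkm, the muscle-type subunit, led with a TPM of 16.5 and 18.5. Pfkl, the liver-type subunit, had 6.79 and 10.6, and Pfkp, the platelet-type subunit, had 8.35 and 3.60. Pfkm held 52.1% of the step in replicate 1 and 56.5% in replicate 2. The second place went to Pfkp in replicate 1 and to Pfkl in replicate 2, so the order of these 2 genes was not settled by TPM. Pfkl-202, of 583 bases, carried 52.2% of the Pfkl level in replicate 2 and none in replicate 1. With coding transcripts of at least 1000 bases, Pfkl had 6.79 and 5.07 and Pfkp 4.32 and 2.69, with Pfkl second in both. The muscle markers Acta1, Myh1 and Myh4 had a TPM of 0 in both libraries, and the sum over the 5 muscle markers was 0.18 and 0.02.

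The enzymes encoded by the Pfkfb genes set the level of fructose-2,6-bisphosphate, the strongest activator of phosphofructokinase. Pfkfb3, a form with high kinase activity, had a TPM of 3.22 and 1.34. Pfkfb2 lay above it, at 4.90 and 3.44. The ratio of Pfkfb2 to Pfkfb3 was 1.52 and 2.57. The Pfkfb3 transcript with the highest TPM was Pfkfb3-215 in replicate 1, with 41.9% of the gene, and Pfkfb3-202 in replicate 2, with 65.7%. The gene had a total of 758 and 499 counts. By counts Pfkfb3-220 led in both libraries, with 42.4% and 55.9%. The TPM of Pfkfb3-202 in replicate 2, 0.88, lies outside its own deposited interval of 0.002 to 0.52, so this change of transcript is uncertain.

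Aldolase, which splits the 6-carbon sugar, was almost wholly Aldoa, the form of muscle and red cells. Aldoa had a TPM of 59.7 and 66.7. Aldoc, the brain-type form, had 0.22 in replicate 1 on 30 counts and was listed at 0 in replicate 2. Aldoa was 271-fold higher in replicate 1 and, against the level that 3 counts would give, at least 2793-fold higher in replicate 2. That floor covers counting error only: the upper bound of the deposited Aldoc interval in replicate 2, 0.21 TPM, lies 309-fold below the lower bound of Aldoa. Tpi1, which interconverts the resulting trioses, had a TPM of 53.0 and 38.6.

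Gapdh, which oxidises glyceraldehyde-3-phosphate, had the highest level of the 35 genes, a TPM of 145 and 174. The testis form Gapdhs had 0 counts in both. Part of the Gapdh level rested on Gapdh-206, a retained-intron model of 565 bases, which held 51.9% and 64.6% of the gene's TPM. Summed over coding transcripts of at least 1000 bases, Gapdh had 41.3 and 49.5, below Ldha at 101 and 95.7 on the same scale. Gapdh also has 75 near-identical copies (at least 95% identity over at least 30% of a transcript), which held 4.39% and 5.07% of the joint counts. The next enzyme, Pgk1, which makes the first ATP of the pathway, had a TPM of 42.9 and 34.9. Its processed copy Pgk1-rs7 held 11.9% of the joint counts in replicate 1 and 2.35% in replicate 2. The testis form Pgk2 had 0 counts in both.

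At the phosphoglycerate mutase step, Pgam1, the mutase of glycolysis, and Bpgm, which makes the 2,3-bisphosphoglycerate that lowers the oxygen affinity of haemoglobin, lay close together. These 2 enzymes share a fold but run different main reactions, so they are not isoenzymes. Pgam1 had a TPM of 7.53 and 6.22. Bpgm (mm10 chr6:34476207-34505613, plus strand) had 7.04 and 3.68. Pgam1 was 1.07-fold higher in replicate 1, where the intervals of 6.92 to 7.85 and 6.71 to 7.56 overlapped, and 1.69-fold higher in replicate 2, where they did not. A difference between the 2 genes was therefore not resolved in replicate 1. The muscle mutase Pgam2 had 0 counts in both. Pgam1 was low among its neighbours in the pathway, with Gapdh 19.2-fold and 28.0-fold above it, or 5.48-fold and 7.95-fold on coding transcripts of at least 1000 bases.

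Enolase was led by Eno1, the form of most tissues. Eno1 had a TPM of 40.1 in both libraries, and Eno3, the muscle form, had 2.25 and 3.56 on 253 and 588 counts. Eno1 held 94.7% and 91.8% of the step's TPM. The neuronal form Eno2 had 0 counts in both. Eno1b, a gene 99.5% identical to Eno1 over 85.6% of its transcript, had a TPM of 6.72 and 6.92, above Eno3. Eno1b and a processed pseudogene held 13.1% and 13.2% of the joint counts of Eno1 and these copies. Since reads of such copies can be divided between them, these levels are uncertain.

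**Figure D2:**
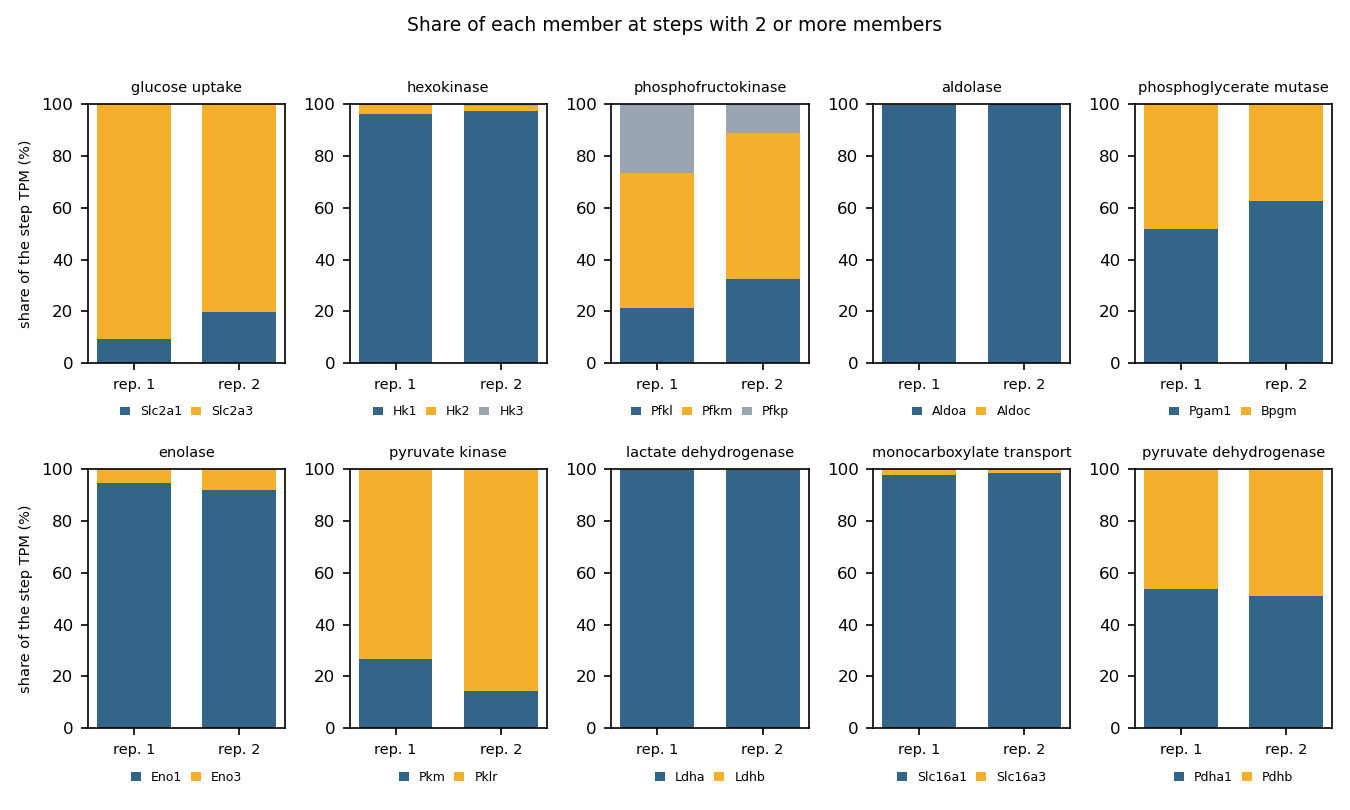
Share in percent of the summed TPM of each step held by each of its genes, with 1 bar for replicate 1 and 1 for replicate 2, for the 10 steps with at least 2 genes. A single gene fills nearly the whole bar for hexokinase, aldolase, lactate dehydrogenase and monocarboxylate transport, whereas phosphofructokinase and phosphoglycerate mutase are divided.

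Pyruvate kinase, the last step of glycolysis, was led by Pklr, which encodes the liver and red cell isoenzymes, and not by Pkm, which encodes the isoenzymes of muscle and of proliferating cells. Pklr (mm10 chr3:89136142-89146784, plus strand) had a TPM of 41.5 and 36.4, on 4859 and 9263 counts. Pkm (mm10 chr9:59656368-59679375, plus strand) had 15.3 and 6.13, on 3085 and 1818 counts. Pklr was 2.71-fold higher in replicate 1 and 5.94-fold higher in replicate 2, and no interval overlapped. The size of the lead depended on how transcripts were summed. In replicate 1, 53.1% of the Pklr level lay in Pklr-205, a processed transcript of 345 bases that took 261 counts. With coding transcripts of at least 1000 bases Pklr led by 1.27-fold and 4.23-fold, and on counts without length correction by 1.58-fold and 5.10-fold. The red cell and liver products of Pklr start at separate first exons. All 3 liver markers had a TPM of 0, as given above.

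The 2 Pkm transcripts differ by a mutually exclusive exon, the ninth of their 11 exons. Both versions of it are 167 bases long and are shown because the M1 or M2 choice rests on them. The M1 exon lies at mm10 chr9:59675029-59675195 in Pkm-202 and the M2 exon at chr9:59675568-59675734 in Pkm-201, both on the plus strand. Capitals mark the 64 positions at which they differ, leaving 61.7% identity. The sequences are from GENCODE M21 transcripts.
Pkm M1 exon: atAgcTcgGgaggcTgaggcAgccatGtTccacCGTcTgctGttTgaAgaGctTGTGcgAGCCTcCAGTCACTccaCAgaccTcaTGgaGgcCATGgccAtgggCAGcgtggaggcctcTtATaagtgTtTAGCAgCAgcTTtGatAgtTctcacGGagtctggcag
Pkm M2 exon: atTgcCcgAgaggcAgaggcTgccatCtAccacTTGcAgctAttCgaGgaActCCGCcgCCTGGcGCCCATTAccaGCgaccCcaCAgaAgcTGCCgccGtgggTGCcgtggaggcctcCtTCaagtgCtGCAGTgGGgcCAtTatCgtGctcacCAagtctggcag
The transcript with the M2 exon held most of the Pkm level in both libraries. Pkm-201 had a TPM of 13.0 and 5.15, which is 84.8% and 84.0% of the gene. Pkm-202, with the M1 exon, had 2.33 and 0.98, or 15.2% and 16.0%. The total Pkm level was lower in replicate 2, but the division between the exons differed by less than 1 percentage point.

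Pklr transcripts fall into those that begin at the upstream first exon, Pklr-201 and Pklr-205, and those that begin at the downstream one, Pklr-202 and Pklr-203. The upstream exon is known as that of the red cell form and the downstream one as that of the liver form. The upstream group held 91.5% of the gene's TPM in replicate 1 and 64.6% in replicate 2. The full-length upstream transcript Pklr-201 had a TPM of 15.9 and 15.8, nearly the same in both libraries. The full-length downstream transcript Pklr-202 had 3.56 and 10.1, with intervals of 2.24 to 5.09 and 8.46 to 11.6. Of these 2 full-length models alone, Pklr-201 held 81.7% and 61.0%. They also end at different positions, 89146594 and 89146784, so reads from the 3′ end as well as from the first exon divide them, and the share of each start is uncertain.

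The RefSeq promoter windows of both starts, 250 bases before to 50 after an annotated start on GRCm38.p6, are shown because this gene's products divide there. The upstream window is chr3:89135892-89136191 and the downstream window chr3:89136373-89136672, both on the plus strand. Capitals mark AGATAA, the motif bound by GATA factors, searched on both strands.
Pklr upstream window: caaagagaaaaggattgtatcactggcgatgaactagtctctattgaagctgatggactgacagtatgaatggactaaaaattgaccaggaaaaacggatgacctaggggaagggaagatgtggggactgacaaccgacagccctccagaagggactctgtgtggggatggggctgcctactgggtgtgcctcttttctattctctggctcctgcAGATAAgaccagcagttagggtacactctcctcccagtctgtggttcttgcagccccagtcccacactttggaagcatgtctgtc
Pklr downstream window: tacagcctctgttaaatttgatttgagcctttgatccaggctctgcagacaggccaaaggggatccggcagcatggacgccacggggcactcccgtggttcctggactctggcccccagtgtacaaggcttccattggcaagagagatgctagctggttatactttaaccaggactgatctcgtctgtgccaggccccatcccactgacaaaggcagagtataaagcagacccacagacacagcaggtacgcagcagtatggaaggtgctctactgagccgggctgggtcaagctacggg
The upstream window holds 1 AGATAA, at position 216, with 29 bases between it and the start, and the downstream window holds none. Of all 32851 RefSeq mouse windows of this length, 11.2% hold AGATAA. Neither window holds CCNCNCCC, the form of the CACCC box searched, which 49.5% of all windows hold. The shorter letters CACCC, read on the other strand as gggtg, do occur in the upstream window and were not counted over all windows. A match is a description of letters and not of binding.

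**Figure D3:**
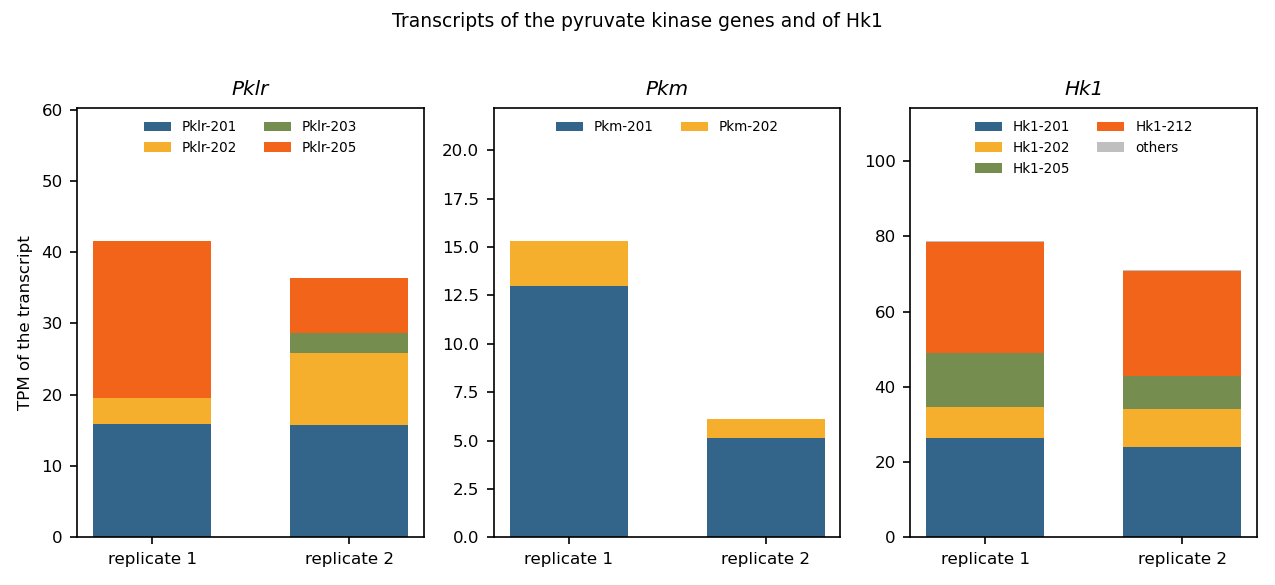
TPM of the transcripts of Pklr, Pkm and Hk1 stacked for replicate 1 and replicate 2, with a separate linear axis for each gene. Pklr-205 is the largest part of Pklr in replicate 1 and Pklr-201 in replicate 2, whereas the Pkm bars keep their division and differ in height.

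Pyruvate can be reduced to lactate, a step that restores NAD for glycolysis. This step was Ldha, the muscle-type subunit, at a TPM of 105 and 102 (mm10 chr7:46841475-46855627, plus strand). Ldhb, the heart-type subunit, had 0.28 and 0.21, on 28 and 26 counts. Ldha was 377-fold and 483-fold higher, so Ldhb lay near the lower limit of these libraries. Ldhal6b, a minor relative, was at 0.28 and 0.30, and the testis form Ldhc had 0 counts in both. Lactate export was led by Slc16a1 (MCT1), with a TPM of 36.6 and 33.2. Slc16a3 (MCT4), the exporter of strongly glycolytic cells, had 0.85 and 0.43, on 40 and 94 counts. In replicate 1, 88.2% of the Slc16a3 level lay in a 395-base processed transcript, and coding transcripts of at least 1000 bases gave 0.10 and 0.28. Bsg, the chaperone that brings these carriers to the membrane, was at 93.6 and 95.4, and Emb, a related chaperone, at 3.92 and 1.65.

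The alternative fate, oxidation in mitochondria, starts with the pyruvate dehydrogenase complex, whose E1 enzyme needs both Pdha1 and Pdhb. Pdha1 (mm10 chrX:160122209-160138413, minus strand) had a TPM of 59.2 and 35.7, and Pdhb had 51.2 and 34.1. The subunits were nearly balanced, with Pdha1 1.16-fold and 1.05-fold above Pdhb. On the scale of long coding transcripts the ratio was 1.05 and 0.986, so the order turned in replicate 2. The other complex genes above a mean TPM of 10 were Dld at 52.2 and 40.8 and Dlat at 18.4 and 11.3. The mitochondrial pyruvate carrier genes Mpc1 and Mpc2 had 36.5 and 25.5, and 22.8 and 14.2. Pdk1, a kinase that switches the complex off, had 16.3 and 14.2, and its relative Pdk3 had 16.9 and 14.8. On long coding transcripts Pdk1 had 7.06 and 6.46 and Pdk3 16.9 and 14.7, which is 2.40-fold and 2.28-fold higher. Pdk4, the fasting-induced form, had 0 counts in both.

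In the oxidative pentose phosphate branch, G6pdx, the first and rate-setting enzyme and a source of NADPH in red cells, had a TPM of 12.7 and 16.6 (mm10 chrX:74409483-74429194, minus strand). Pgls, which opens the lactone that G6pdx makes, had 20.4 and 17.4. Pgd, which makes the second NADPH and ribulose-5-phosphate, had 9.45 and 9.14. Each of the 3 stands alone at its step in the list of 35.

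The non-oxidative branch was higher. Tkt, the transketolase (mm10 chr14:30548359-30574720, plus strand), had a TPM of 83.0 and 79.8. Taldo1, the transaldolase (mm10 chr7:141392199-141402968, plus strand), had 85.0 and 76.8. Rpia, which makes ribose-5-phosphate (mm10 chr6:70765720-70792232, minus strand), had 66.1 and 59.6. Tkt and Taldo1 did not differ beyond their spread, and their order turned between the libraries. Rpe, which makes xylulose-5-phosphate, was the low member at 12.1 and 8.93, and Rpia stood 5.48-fold and 6.67-fold above it. Tkt was 6.54-fold and 4.79-fold above G6pdx. The median level of the 4 non-oxidative genes was a TPM of 71.9, against 14.7 for the 3 oxidative genes, 10.7 for the 19 glycolytic genes from hexokinase to pyruvate kinase and 34.9 for the 7 genes of pyruvate use. The glycolytic group holds lesser isoenzymes that the pentose phosphate groups do not, and the leading genes of its 10 steps had a median of 40.4. The transketolase relatives Tktl1 and Tktl2 had 0 counts in both. Prps1, which turns ribose-5-phosphate into the precursor of nucleotides, had 26.1 and 21.7.

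Of 47 other genes of these pathways, 16 reached a TPM of 1 in both libraries and 17 had 0 counts in both. The genes at 0 counts included Fbp2 and Pck1, relatives or members of gluconeogenesis, which runs the pathway backwards in tissues such as liver. Pck2, the mitochondrial relative of Pck1, had a TPM of 10.5 and 11.9.

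Each library was also set against the other, as log2 of (TPM of replicate 2 + 1) over (TPM of replicate 1 + 1), for genes whose mean TPM was 1 or more. With 1 library a side this has no replicate check. Over 9033 nuclear protein-coding genes the median was -0.27, so the side to which a gene moved is read relative to it. The 2-fold calls used the ratio itself, not set against the median. The median over the 30 genes of the list that passed was -0.17, and with counts scaled by TMM, a method that equalises the bulk of genes, it was 0.18 against 0.01 over all. Past 2-fold were 2 of the 30, both lower in replicate 2, where 6.47% of all genes were lower by that much and 1.66% higher (8.13% in either direction).

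The 2 genes were Pkm, at -1.19, and Pfkp, at -1.02. Relative to the median of all coding genes they were at -0.92 and -0.75, so neither was past 2-fold there. Pkm fell past 2-fold on TPM but had -0.98 with TMM-scaled counts, and Pfkp had -0.21 there, its counts being 1329 and 1334. On coding transcripts of at least 1000 bases Pkm stayed at -1.19, or -0.98 relative to the median, and Pfkp was at -0.53. Not set against the median, Pkm was the only 1 of the 30 past 2-fold there, where 5.18% of all genes were. No gene of the list passed 2-fold with TMM, where 8.33% of all genes did. Relative to the median of all coding genes, 10 genes lay below it on TPM, on TMM-scaled counts and on long coding transcripts alike, as did 41.6% of the 9033 genes. They were Pkm, Pfkp, Pfkfb3, Bpgm, Pdha1, Hk2, Pdhb, Slc2a3, Tpi1 and Rpe. Another 17 lay above on each scale that gave a value, as did 38.6% of the 9033 genes, and Pgk1, Pgam1 and Pfkl changed side. Of the 17, Eno3 and G6pdx stood highest on TPM, and Eno3 had the highest value on all 3 scales. Pgls has no value for long coding transcripts, since its main transcript has 893 bases. Pklr, 0.09 above the median on TPM, was 0.70 above with TMM and 0.61 above with long coding transcripts.

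The summed markers of megakaryocytes and of stem cells were also lower in replicate 2, with 7 of 10 and 7 of 9 genes lower. On this TPM scale, not set against the median, 6601 of the 9033 coding genes were lower and 2424 higher. The counts of lower genes in both lists thus lie near the share over all, though the lists also hold genes below a mean TPM of 1. Among the markers of both lists that were higher, Vwf had a TPM of 1.44 and 2.01 and Gp9 of 0.43 and 1.65. Of these lists Ppbp was at 0 in replicate 2 and Ly6a at 0 in both. Itga2b had a TPM of 19.6 and 5.70, Pf4 of 23.5 and 8.71 and Cd34 of 18.3 and 1.44. Hba-a1 and Hbb-bs, globin genes of late red cell precursors, were higher in replicate 2, at 5.26 and 21.4 and at 1.56 and 14.5. Of the 12 erythroid markers 8 were higher and 4 lower on this scale, Gata1 having 35.8 and 31.3. Their sum, mostly Car1 (723 and 708) and Car2 (449 and 427), was nearly the same in both libraries. Set against the TPM median of -0.27, each of the 12 lay above it, the lowest being Aqp1 at -0.21. With TMM-scaled counts each also lay above the median of 0.01, from 0.12 for Aqp1 to 4.71 for Slc4a1. The part of these markers in the library difference was not tested, and in bulk RNA fewer cells of a type and less RNA per cell cannot be told apart.

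**Figure D4:**
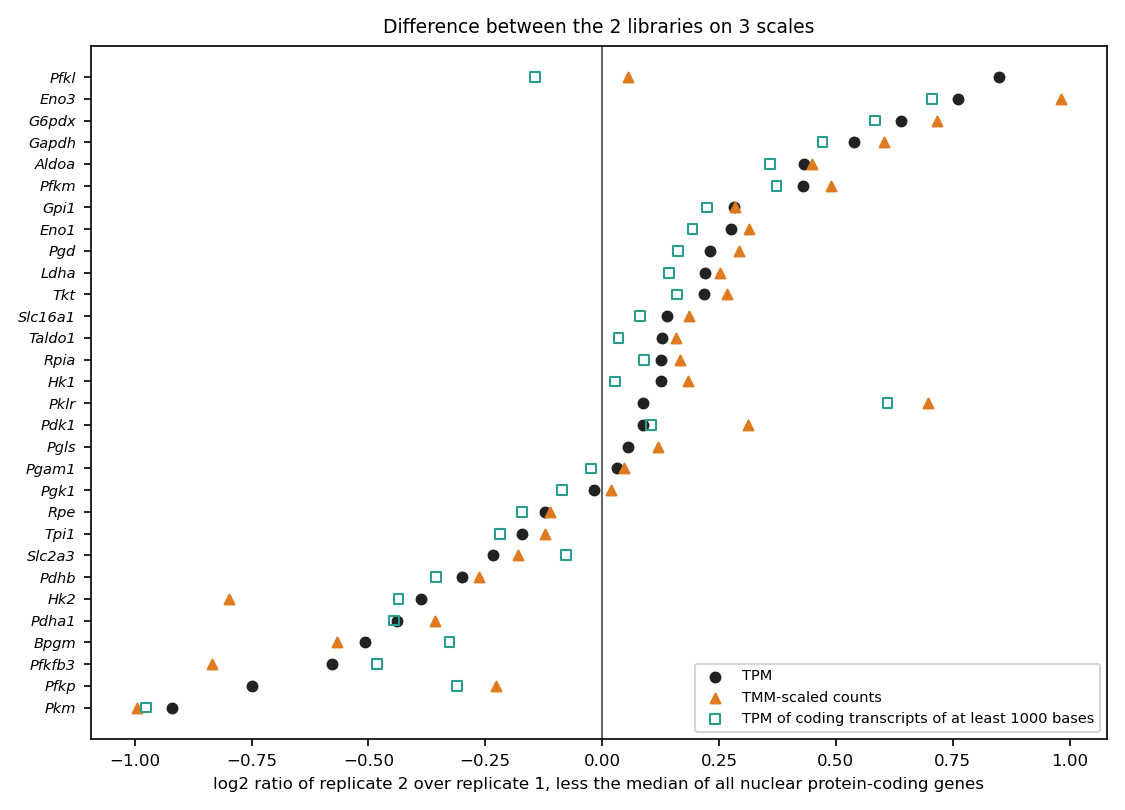
Log2 ratio of replicate 2 over replicate 1 less the median of all nuclear protein-coding genes, for the 30 genes whose mean TPM was 1 or more, as circles for TPM, triangles for TMM-scaled counts and open squares for coding transcripts of at least 1000 bases. Pkm lies lowest on all 3 scales, and the 3 symbols of Pfkl spread over both sides of 0.

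The leading transcript of a gene was the same in both libraries for 24 of 27 detected genes with at least 2 annotated transcripts, whereas this held for 72.6% of 6363 coding genes of that kind. The 3 exceptions were Pfkl, Pfkfb3 and Pklr, described above. At 5 of the 27, Hk1, Pfkl, Gapdh, Pklr and Pgls, the leading transcript in at least 1 library was shorter than 1000 bases or not coding. At 9 of the 35 genes a near-identical copy exists elsewhere, and 3 of these, Gapdh, Pgk1 and Eno1, had copies with over 5% of the joint counts in a library.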

How the data were processed

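Total RNA of 2 MEP libraries was analysed from the gene and transcript tables that the authors deposited. Per the file headers these hold expected counts (estimated, not normalized), TPM, a posterior mean TPM, FPKM, the bounds of a TPM interval (a signal that is not a share), effective lengths and, for transcripts, the percent of the gene held by each transcript. FPKM served only as an alternative, and the deposited transcript percent was recomputed from TPM. Build mm10 and GENCODE M4 are named in the text notes deposited by the authors. The quantifying program, its counting of shared reads and its strand setting are not given in the sources used here. TPM is scaled over all rows, so the share held by all other rows moves the TPM of every coding gene together. That share was not split by class of RNA.

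Symbols and coordinates came from GENCODE M21 on the same assembly (42462 of 43346 gene identifiers matched), and promoter windows from RefSeq, found for all genes but Slc2a3. The gene listed as Gm5506 was matched as Eno1b, its RefSeq synonym. Detection meant a TPM of 1 or more in each library. Ratios between libraries used a pseudocount of 1 and a 2-fold limit, and fold values understate changes of low genes on that scale. The floor for 0 counts was 3 counts. It covers counting error only, since the tables carry no molecular identifiers. Library sizes for TMM (edgeR 4.0.16) and DESeq2 1.42.0 in R 4.3.3 used expected counts rounded to whole numbers, for genes with at least 10 counts. Copies were found with blastn 2.17.0 at 95% identity over 30% of a transcript. Other steps used Python 3.11.15, numpy 2.4.6, pandas 2.3.3 and matplotlib 3.10.9. The 2-fold call was tested on simulated data that held counting error only and the same gene lengths in both libraries. That test therefore does not cover other spread between libraries, or shifts of length such as that of Pfkp. The 26248 numbered rows of the tables (26 and 1 counts in all) and 97 spike-in rows were left out.

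All 35 genes are named. Of other pathway genes, those with a mean TPM of at least 10, those above a listed gene of their step and some with 0 counts are named, and transcripts are given for Pkm and for genes whose leading transcript changed. The transcripts of Hk1, Hk3, Gapdh, Slc2a1 and Slc16a3 and single marker genes were chosen after their values were seen. The genes, lists and rules were chosen with earlier results of these data known. The summation over coding transcripts of at least 1000 bases was added after seeing the data.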

Additional observations from a re-analysis of the deposited data

How the results depend on the processing

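No paired analysis was possible because the series has 1 group, so no groups share replicate numbers. The number of genes detected was 30, and 24 to 34 under the other minimums, scaling and estimate, with 30 to 31 when either library was left out. The leading gene was the same in both libraries at 10 of 10 steps, and at 9 with counts, with all genes of a step or with coding transcripts of at least 1000 bases. Of the steps whose second gene reached a TPM of 1 in each library, there were 6, and their leaders were the same, since fewer steps qualify. The number of genes past 2-fold was 2, and 3 with a pseudocount of 0.1, where Pfkfb3 joined Pkm and Pfkp, but 0 with TPM rescaled to coding genes, 0 with TMM, 0 with DESeq2 size factors, 1 with posterior mean TPM and 1 with long coding transcripts. The median log2 ratio was -0.17, but 0.14 with rescaled TPM, 0.18 with TMM and 0.17 with DESeq2 size factors. Those scalings bring the median of all coding genes to -0.01, 0.01 and 0.01. The leading transcript was the same in 24 of 27 genes, and in 13 of 14 with long coding transcripts, where fewer genes have a choice. Leaving out a library gives no value for results that compare the libraries. Values of genes below a TPM of 1 rest on few counts, and the cause of the differences between settings was not tested.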

Other observations

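Promoter windows of RefSeq were found for 34 of the 35 genes, 49 windows in all. The letters CCNCNCCC, a form of the CACCC box, occur on either strand in 39 of the 49 windows (79.6%) and in 49.5% of all 32851 mouse windows. ACGTG, the core of the hypoxia response element, occurs in 20 windows (40.8%), those of 17 genes that include Ldha, Pgk1, Aldoa, Gapdh and Slc16a1, and in 19.6% of all windows. CACGTG, an E-box that contains ACGTG, occurs in 4 windows (8.16%), at Ldha, Pfkfb3, Pfkm and Slc16a1, and in 7.15% of all. AGATAA occurs in 5 windows (10.2%), at Eno3, Pfkm and Pklr, and in 11.2% of all. All windows were counted whether or not their gene is expressed, and base composition was not matched, so these shares describe letters and were not tested.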
